A study of Homo sapiens with 6 samples.

Results

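The genes described here encode the proteasome, the cell's main machine for degrading proteins tagged with ubiquitin. They were followed in HaCaT, a spontaneously immortalised human keratinocyte line. The cells spent 1 h a day at 41C on 3 days, or had the same schedule at 37C. Each temperature had 3 libraries of poly(A) RNA, and all 6 came from the same unmodified line, with no genotype or agent other than temperature in the labels. Nothing in the labels states that replicates came from different cultures, and the p-values therefore reflect library-to-library spread that may be technical. The sources used here do not give the interval between the last exposure and lysis.

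Members were chosen by symbol (PSMA to PSMG followed by a number) and by a mean of at least 50 counts over the 6 libraries. The count table held 15379 symbols, of which 48 matched the pattern. PSMB8 and PSMB9 were left out by name, and PSMA8 and PSMB11 fell under the minimum with 2 and 1 counts in all. The 44 members that remained comprised 15 genes of the 20S core, 20 of the 19S cap, and 9 activators, regulators and assembly factors. Nearest inside the minimum was PSMG4, with 341, 387 and 390 counts at 41C and 354, 366 and 385 counts at 37C. All 44 passed the filter on low counts and were tested among 12056 genes.

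As background, the 20S core is a barrel of stacked rings. Outer rings of alpha subunits (PSMA genes) gate the entry, and inner rings of beta subunits (PSMB genes) hold the proteolytic sites. The 19S cap recognises ubiquitin chains, removes them, and unfolds the substrate with a ring of ATPases (PSMC genes) that feeds it into the barrel. Proteasome genes are commonly transcribed together, and the factor NFE2L1 raises them through antioxidant response elements when proteasome capacity falls short. In keratinocytes, as in other cells, heat unfolds proteins and so adds substrates for this machine.

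The sequence before the start of 5 members is shown. PSMB10 and PSMA2 had the lowest changes of the core, PSMD10 and PSMD3 the lowest and highest of the cap, and PSMB5 carries a main proteolytic site. The sequences are the 250 bases upstream of the RefSeq start on GRCh38.p14, read 5′ to 3′ in the direction of the gene. Capitals mark matches, on either strand, to the antioxidant response element core TGANNNNGC, the NF-Y box CCAAT or the interferon-stimulated response element core (GAAA repeated after a gap of 2 bases), the last of which was searched after the sequences had been seen. No matches overlap in these 5. The first of 2 RefSeq entries is shown for PSMB5, and in the GENCODE annotation all 5 genes begin inside the window shown.
PSMB10 (chr16:67936851-67937100, minus strand): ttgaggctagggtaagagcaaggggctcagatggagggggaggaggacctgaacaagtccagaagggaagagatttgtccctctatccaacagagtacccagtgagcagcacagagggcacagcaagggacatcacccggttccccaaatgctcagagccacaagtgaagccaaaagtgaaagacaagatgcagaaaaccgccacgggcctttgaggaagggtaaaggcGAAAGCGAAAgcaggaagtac
PSMB5 (chr14:23035221-23035470, minus strand): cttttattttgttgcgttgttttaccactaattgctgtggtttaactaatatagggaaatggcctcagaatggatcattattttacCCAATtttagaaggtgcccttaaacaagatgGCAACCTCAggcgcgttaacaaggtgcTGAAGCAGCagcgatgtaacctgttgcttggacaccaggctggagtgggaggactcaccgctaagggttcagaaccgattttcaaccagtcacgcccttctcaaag
PSMA2 (chr7:42932175-42932424, minus strand): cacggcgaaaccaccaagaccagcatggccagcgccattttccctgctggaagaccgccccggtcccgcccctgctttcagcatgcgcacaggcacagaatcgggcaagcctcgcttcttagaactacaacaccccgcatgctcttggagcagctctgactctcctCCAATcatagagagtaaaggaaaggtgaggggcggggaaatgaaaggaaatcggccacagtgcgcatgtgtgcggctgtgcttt
PSMD10 (chrX:108091543-108091792, minus strand): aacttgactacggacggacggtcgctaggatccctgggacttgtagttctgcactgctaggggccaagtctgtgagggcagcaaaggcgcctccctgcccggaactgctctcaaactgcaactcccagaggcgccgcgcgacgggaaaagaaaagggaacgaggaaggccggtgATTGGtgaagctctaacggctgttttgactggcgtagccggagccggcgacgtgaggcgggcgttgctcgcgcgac
PSMD3 (chr17:39980557-39980806, plus strand): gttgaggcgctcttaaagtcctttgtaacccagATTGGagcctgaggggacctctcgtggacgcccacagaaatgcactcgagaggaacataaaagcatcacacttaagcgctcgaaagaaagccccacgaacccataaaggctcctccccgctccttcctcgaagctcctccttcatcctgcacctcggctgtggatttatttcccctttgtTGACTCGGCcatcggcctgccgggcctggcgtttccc

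PSMB5 had 2 antioxidant response element matches, starting 133 and 106 bases before the start, and PSMD3 had 1, at 37 bases. PSMB10 had neither that element nor an NF-Y box, and held the interferon-type match 21 bases before the start. PSMG2, whose change was lower than that of PSMD10, is not shown. It had antioxidant response element matches 132 and 39 bases before the start, and at 97 bases in its second entry. RefSeq promoter entries were found for 38 of the 44 members, 46 entries in all, and were not found for PSMA7, PSMB1, PSMB6, PSMB7, PSMD4 and PSMG3. TGANNNNGC occurred in 24 of the 46 entries (52.2%), against 35.2% of all 35116 entries. CCAAT occurred in 37.0% of the members' entries against 32.0% of all. The interferon-type core occurred in 5 of the 46 entries (10.9%) against 3.0% of all, and in 0 of the 21 entries of the cap. Because it was searched only after the sequences had been seen, its share cannot test enrichment. The heat shock element core GAANNTTC occurred in 0 of the 46 against 5.8% of all, which says only that these letters were not in this window.

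Proteasome transcripts differed by small amounts between 41C and 37C, and no single gene passed the test. None of the 44 members passed edgeR's quasi-likelihood test after Benjamini-Hochberg adjustment at 0.05, where 0.821% of all genes tested were higher and 0.265% lower, 1.09% in either direction. The limma-voom fit also called 0 of 44, and DESeq2 0 of the 37 for which it gave an adjusted p. The 7 without one included PSMB10, PSMD6 and PSMG2. At an unadjusted p under 0.05 edgeR placed 9 members lower and 1 higher, against 6.12% and 7.58% of all genes. The log2 changes of the members ran from -0.24 (PSMB10) to 0.10 (PSMD3). Their 95% intervals, not adjusted for the number of genes, lay between -23.6% (PSMB10) and 18.3% (PSMG3) relative to the 37C level.

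**Figure D1:**
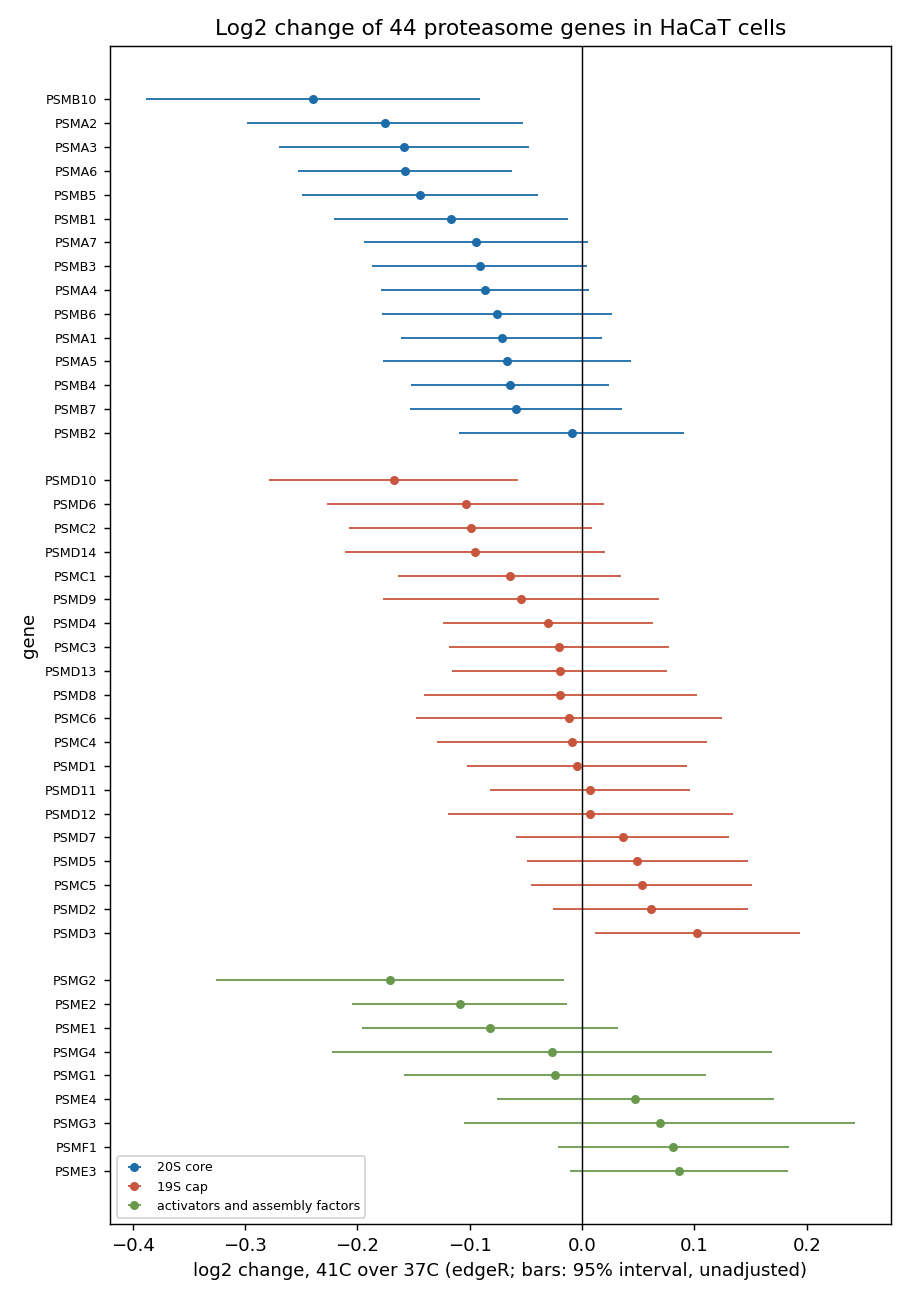
Log2 change of each of the 44 members at 41C over 37C (x axis; points are edgeR estimates, bars are unadjusted 95% intervals), ordered within the 20S core, the 19S cap, and the activators and assembly factors. All 15 core genes lie left of 0, from -0.24 to -0.009, while the 20 cap genes lie on both sides, from -0.17 to 0.10.

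Within this narrow range the core lay on one side of 0 and the other groups on both. All 15 members of the 20S core had a negative log2 change, against 49.1% of all genes tested, and their median was -0.091, a difference of -6.12%, against a median of 0.0023 over all genes. In 11 of the 15 every 41C library lay below every 37C library, against 8.84% of all genes. The 19S cap had 13 negative and 7 positive changes, against 50.9% positive in all genes, with a median of -0.016, and its libraries lay apart downward in 4 genes and upward in 2, against 11.2% upward in all genes. The activators, regulator and assembly factors had 5 negative and 4 positive changes with a median of -0.024, which turned to 0.0077 with the gene length correction described below. Members share the same 6 libraries and are not replicates of each other, so no p-value is attached to these counts and medians.

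Levels were also summed over the genes of each group, in counts per 1000000 scaled by edgeR's TMM factors (CPM). The core genes together had 2721, 2692 and 2694 CPM in the 41C libraries, against 2829.9, 2854 and 2957 CPM in the 37C libraries. The 41C libraries were all below the 37C libraries, and 37C replicate 3 stood above the other two of its group. The cap genes together had 3237, 3219.8 and 3194 CPM at 41C and 3204, 3162 and 3253 CPM at 37C, and here the groups overlapped. The ratio of cap to core averaged 1.19 ± 0.0051 at 41C and 1.11 ± 0.0168 at 37C (SD, n = 3 each), and every 41C library lay above every 37C library. These sums and their ratio were not corrected for gene length, which had a median of 984 bases in the core and 1950 in the cap. Length moved with the changes of all genes, as described below. In bulk RNA, fewer cells with a transcript and less of it per cell cannot be told apart.

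**Figure D2:**
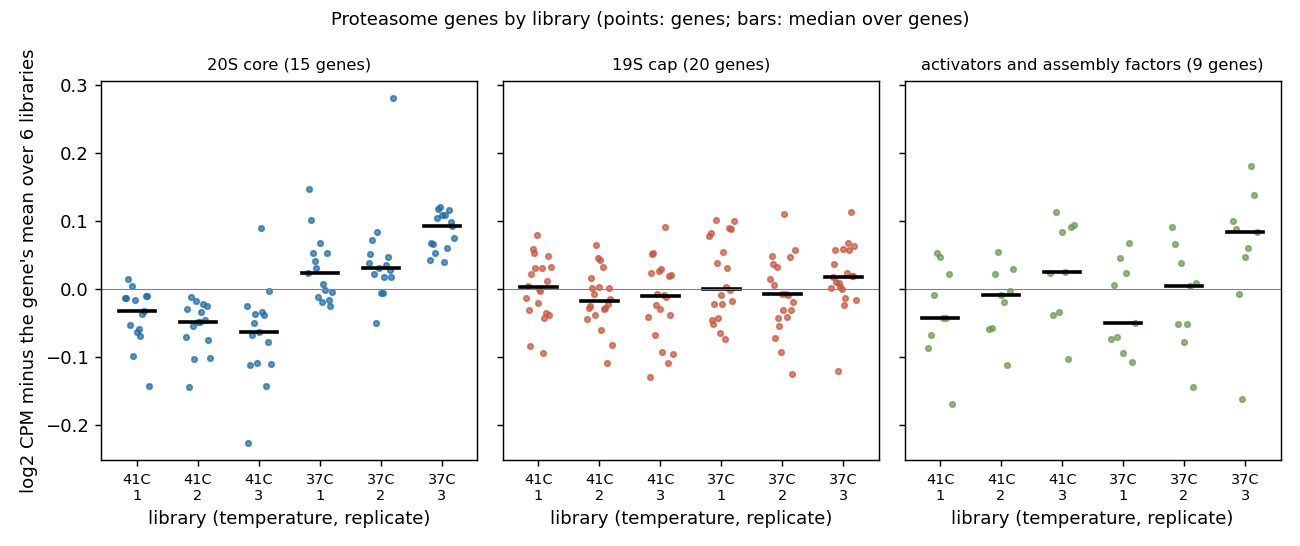
Log2 CPM of each member minus its own mean over the 6 libraries (y axis), by library with 41C at the left, for the 20S core, the 19S cap, and the activators and assembly factors; points are genes and black bars their medians. The medians of the core were -0.031, -0.048 and -0.063 in the 41C libraries and 0.025, 0.031 and 0.094 in the 37C libraries, while those of the cap stayed within -0.017 and 0.019.

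Gene length moved with these changes across the whole table. Over the 12056 genes the log2 change had a Spearman correlation of 0.254 with gene length, a description across genes that share the 6 libraries and are not independent replicates. Short genes more often had negative changes. Among the 1116 tested genes under 1500 bases, 76.0% had a negative change and the median was -0.066. The core genes had a median length of 984 bases, against 1950 for the cap and 4038 for all genes tested, and the 10 core genes under 1500 bases had a median change of -0.11. When each library was corrected for its trend on length, the median of the core became -0.042 and that of the cap 0.013. The core then had 11 negative and 4 positive changes, where 48.4% of all genes were negative and 51.6% positive, and its positive ones were PSMB3, PSMB4, PSMB6 and PSMB7. Of the 9 activators, regulator and assembly factors, 3 then had negative changes. The 5 core genes of 1500 bases or more, PSMA1, PSMA4, PSMA5, PSMA6 and PSMB2, had negative changes with and without the correction. With the correction no member passed in either direction, where 0.614% of all genes were called higher and 0.282% lower. The part that length plays in the lower core levels was not tested beyond this correction.

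**Figure D3:**
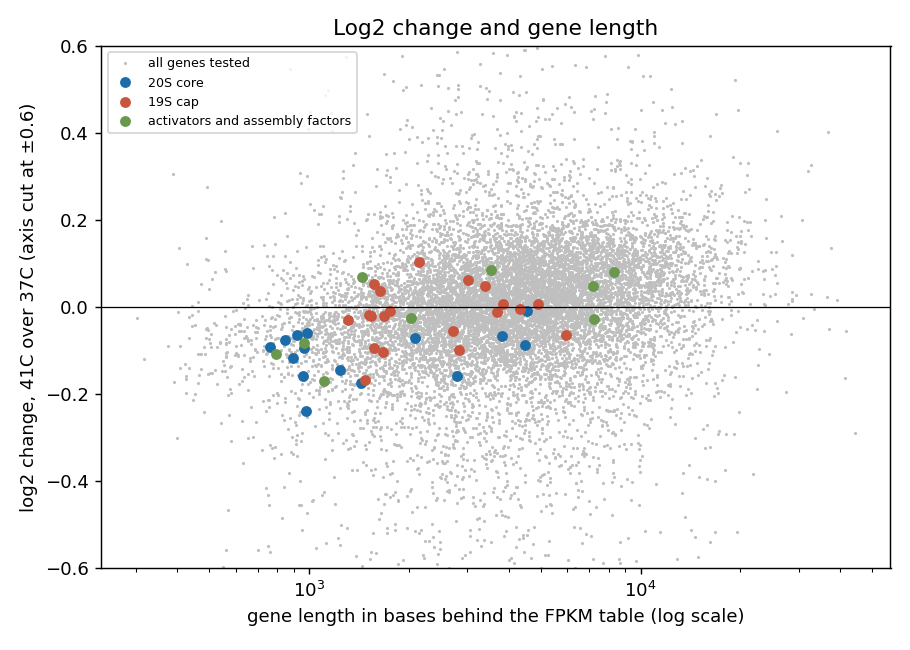
Log2 change at 41C over 37C (y axis, cut at 0.6 in both directions, genes beyond it not drawn) against the gene length behind the FPKM table in bases (x axis, log scale), for the genes tested in grey and the members in colour. The core genes crowd the short end, 10 of them below 1500 bases, where the median of all genes was -0.066.

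**Figure D4:**
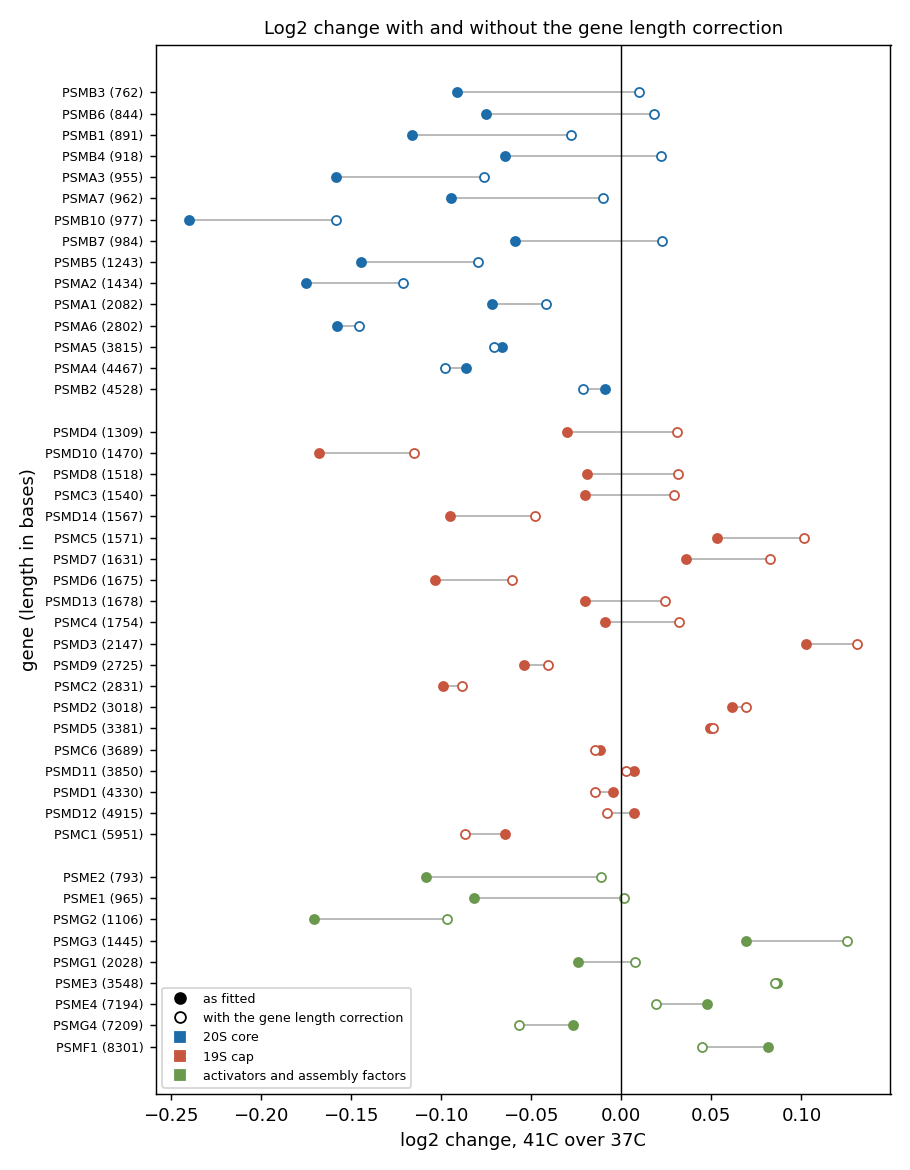
Log2 change of each member at 41C over 37C as fitted (filled) and with the gene length correction (open), ordered by length within each group with the length in bases beside the name. The correction moved the shortest genes most, with PSMB3 at -0.091 as fitted and 0.0096 corrected, and left PSMA6 at -0.15.

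In the alpha ring all 7 PSMA genes had negative changes, with a median of -0.094 as fitted and -0.076 with the length correction. In 6 of them the libraries of the temperatures lay apart downward, against 8.84% of all genes. PSMA6, a ring subunit, had 186.5, 185.9 and 194.7 CPM at 41C and 204.1, 211.7 and 216.7 CPM at 37C. Its 41C values were all below its 37C values, with a log2 change of -0.16 ± 0.045 (SE, as for every log2 change here; edgeR adjusted p = 0.106), the smallest adjusted p of any member. PSMA2, another ring subunit, had 134.9, 133.5 and 116.4 CPM at 41C and 150.8, 141.1 and 142.7 CPM at 37C. The groups did not overlap, and 41C replicate 3 was the lowest library. The log2 change of PSMA2 was -0.18 ± 0.058 (edgeR adjusted p = 0.178), and -0.11 without that replicate. PSMA3 averaged 116.0 ± 6.86 CPM at 41C and 129.4 ± 1.71 CPM at 37C (SD, n = 3 each; log2 change -0.16 ± 0.053, edgeR adjusted p = 0.177). With the length correction the change of PSMA3 was -0.076. PSMA5 was the one alpha gene whose groups overlapped.

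The 7 beta ring genes other than PSMB10 had a median change of -0.075 as fitted and 0.0096 with the length correction, with 3 then negative. Among the beta subunits, PSMB10 had the lowest change of all members. It encodes the inducible subunit that replaces PSMB7 at the trypsin-like site in immunoproteasomes. It had 51.5, 53.0 and 52.7 CPM at 41C and 56.7, 69.1 and 59.9 CPM at 37C. The 41C libraries were close together and below the 37C libraries, of which replicate 2 was the highest. The log2 change was -0.24 ± 0.070, a difference of -15.3% with an unadjusted 95% interval of -23.6% to -6.13% (edgeR adjusted p = 0.118). The log2 change of PSMB10 was -0.16 without 37C replicate 2, and also -0.16 with the length correction. Per length, PSMB10 had 53.3 ± 0.663 FPKM at 41C and 63.7 ± 6.50 FPKM at 37C (SD, n = 3 each). PSMB7, of nearly the same length, was 6.01 ± 0.228 times as abundant per length at 41C and 5.33 ± 0.546 times at 37C (SD, n = 3 each). The other immunoproteasome genes, PSMB8 and PSMB9, are not members. PSMB8 differed by a log2 value of -0.13 ± 0.056 and PSMB9 by -0.16 ± 0.067, with overlapping groups and edgeR adjusted p-values of 0.325 and 0.291. With the length correction these values were -0.078 for PSMB8 and -0.086 for PSMB9.

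The constitutive proteolytic sites lie in PSMB5, PSMB6 and PSMB7. PSMB5, which carries the chymotrypsin-like site, had 131.8, 130.6 and 122.1 CPM at 41C and 139.8, 139.3 and 146.0 CPM at 37C. Every 41C library was below every 37C library, with a log2 change of -0.14 ± 0.050 (edgeR adjusted p = 0.195), and -0.079 with the length correction. PSMB6, with the caspase-like site, averaged 147.0 ± 3.64 CPM at 41C and 154.9 ± 6.24 CPM at 37C, and PSMB7 averaged 316.8 ± 8.61 CPM at 41C and 330.1 ± 13.8 CPM at 37C (SD, n = 3 each). For both the groups overlapped, and the log2 changes of -0.075 ± 0.048 and -0.059 ± 0.045 turned to 0.018 and 0.023 with the length correction. PSMB1, a structural beta subunit, was below its 37C libraries in all 41C libraries (log2 change -0.12 ± 0.049, edgeR adjusted p = 0.302), with a change of -0.028 after the length correction. PSMB2 was the core gene closest to 0. It had 268.2, 270.0 and 297.2 CPM at 41C and 275.6, 278.1 and 287.0 CPM at 37C, with 41C replicate 3 the highest library of all 6 (log2 change -0.0093 ± 0.047, edgeR adjusted p = 0.961).

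In the 19S cap, PSMD3 was the member with the highest change. It encodes a scaffold subunit of the lid, the part of the cap that holds the deubiquitinase PSMD14. It had 289.2, 282.6 and 278.7 CPM at 41C and 261.7, 256.8 and 273.8 CPM at 37C. All 41C libraries were above all 37C libraries, with a log2 change of 0.10 ± 0.043, or 7.36% higher (edgeR adjusted p = 0.300), and 0.13 with the length correction. The 8 lid genes as a whole had 4 positive and 4 negative changes and a median of -0.0060. PSMD6, a lid subunit, had the lowest of these, with 60.4 ± 1.91 CPM at 41C and 64.9 ± 2.78 CPM at 37C (SD, n = 3 each; log2 change -0.10 ± 0.058, edgeR adjusted p = 0.455), and a corrected change of -0.061. PSMD7, the partner of PSMD14, differed by a log2 value of 0.036 ± 0.045 at an edgeR adjusted p of 0.787, and by 0.082 with the length correction.

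In the base of the cap the genes lay on both sides of 0. PSMD2, the scaffold where shuttle factors dock, gave the most counts of any member and had 611.8, 626.1 and 595.8 CPM at 41C and 581.3, 576.5 and 599.7 CPM at 37C. The groups overlapped through 41C replicate 3 and 37C replicate 3 (log2 change 0.061 ± 0.041, edgeR adjusted p = 0.552). The 6 ATPase genes ran from PSMC2, with 120.4 ± 5.79 CPM at 41C and 129.0 ± 2.89 CPM at 37C (SD, n = 3 each; log2 change -0.099 ± 0.051, edgeR adjusted p = 0.407), to PSMC5, at 0.053 ± 0.047 (edgeR adjusted p = 0.674) and 0.10 with the length correction. Their summed level was 730.3, 725.4 and 727.7 CPM at 41C and 744.0, 738.8 and 739.2 CPM at 37C. These sums, not corrected for length, lay apart by a ratio of 0.983. The median change of the 6 ATPase genes was -0.016 as fitted, with 5 negative, and 0.0072 with the length correction, with 3 negative. PSMC2 had a corrected change of -0.088.

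The PSMD5, PSMD9 and PSMD10 genes encode chaperones that assemble the base and leave before the particle is finished. PSMD10, also called gankyrin, had 86.6, 82.4 and 82.4 CPM at 41C and 94.5, 91.8 and 96.0 CPM at 37C. The groups were well separated, with a log2 change of -0.17 ± 0.052 (edgeR adjusted p = 0.147), and -0.11 with the length correction. PSMD5 had a change of the opposite sign. It averaged 127.8 ± 1.93 CPM at 41C and 123.5 ± 0.382 CPM at 37C, and its 41C libraries were all above those at 37C (SD, n = 3 each; log2 change 0.049 ± 0.047, edgeR adjusted p = 0.705).

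The remaining genes encode particles that bind the core in place of the cap, a regulator, and chaperones of core assembly. PSME2, a subunit with PSME1 of the interferon-inducible activator ring, had 159.2, 160.3 and 162.5 CPM at 41C and 167.5, 174.8 and 177.4 CPM at 37C. The groups did not overlap (log2 change -0.11 ± 0.045, edgeR adjusted p = 0.296), and with the length correction the change was -0.011. PSME3, the nuclear activator, averaged 232.6 ± 10.4 CPM at 41C and 219.1 ± 4.99 CPM at 37C, and PSMF1, which binds the core and regulates it, averaged 234.7 ± 7.49 CPM at 41C and 221.9 ± 12.1 CPM at 37C (SD, n = 3 each). The groups overlapped for both, with log2 changes of 0.086 ± 0.046 for PSME3 and 0.081 ± 0.048 for PSMF1 at edgeR adjusted p-values of 0.425 and 0.490. The change of PSMF1, a gene of 8301 bases, was 0.045 with the length correction. PSMG2, which with PSMG1 guides alpha ring assembly, had 30.6, 29.1 and 29.3 CPM at 41C and 33.0, 31.6 and 35.7 CPM at 37C. It was lower in every 41C library (log2 change -0.17 ± 0.073, edgeR adjusted p = 0.308), and with the length correction its change was -0.097. For the other assembly chaperones, PSMG1, PSMG3 and PSMG4, the groups overlapped.

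**Figure D5:**
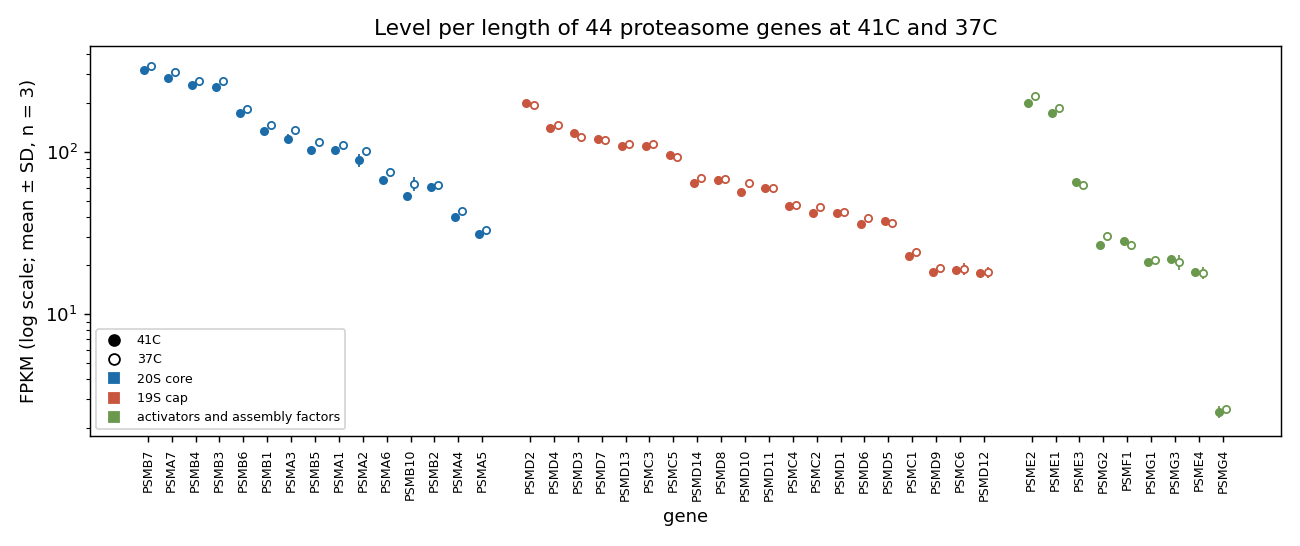
Level per length of the 44 members in FPKM (y axis, log scale) as mean ± SD of 3 libraries, at 41C (filled, left of each pair) and 37C (open), ordered by level within each group. Levels between genes spanned 2.52 (PSMG4) to 319.8 FPKM (PSMB7) at 41C, while the 41C and 37C points of each gene lie close together.

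Levels per length differed far more between members than between temperatures. In FPKM, the core genes ran from 31.1 (PSMA5) to 319.8 (PSMB7) at 41C and from 33.0 to 337.4 at 37C, with medians of 103.3 at 41C and 114.7 at 37C. These medians fall on different genes, PSMA1 at 41C and PSMB5 at 37C, so their difference is not the change of a gene. FPKM was also not scaled by TMM. The cap genes ran from 18.0 (PSMD12) to 201.2 FPKM (PSMD2) at 41C and from 18.1 to 195.3 FPKM at 37C. FPKM divides by 1 fixed length per gene, so these levels depend on the length assigned, which was 3815 bases for PSMA5 and 984 for PSMB7. Replicates were close, with a coefficient of variation of 0.607 to 9.30% over the members at 41C (median 2.63%) and 0.309 to 10.9% at 37C (median 3.36%).

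Other genes of the ubiquitin and proteasome pathway were counted from 6 lists, of which 100 of 101 genes were tested. At an adjusted p under 0.05 edgeR called 2 higher and 1 lower, against 0.821% higher and 0.265% lower in all genes tested. Of the 100 changes 58 were positive and 42 negative, against 50.9% positive in all genes, and the median log2 change was 0.019. The 2 were among 22 ubiquitin ligases of protein quality control and the 1 among 27 conjugating enzymes. Of 16 shuttle factors and VCP cofactors and of 6 ubiquitin and activating enzyme genes, edgeR, DESeq2 and limma-voom called 0. At an unadjusted edgeR p under 0.05 the shuttle list had 1 gene, higher, and the ubiquitin list 1 higher and 2 lower, where 13.7% of all genes passed in either direction. HUWE1, a very large ubiquitin ligase, rose to 572.8 ± 7.69 CPM at 41C, against 495.1 ± 4.17 CPM at 37C (SD, n = 3 each; log2 change 0.21 ± 0.039, edgeR adjusted p = 0.0158). UBR4, a large ligase of the N-degron pathway, rose to 316.4 ± 7.31 CPM at 41C, against 271.7 ± 3.77 CPM at 37C (SD, n = 3 each; log2 change 0.22 ± 0.041, edgeR adjusted p = 0.0169). UBE2C, a mitotic conjugating enzyme, fell to 145.5 ± 10.8 CPM at 41C, against 177.7 ± 6.95 CPM at 37C (SD, n = 3 each; log2 change -0.29 ± 0.055, edgeR adjusted p = 0.0192). With the length correction the changes were 0.14, 0.16 and -0.22 and none of the 3 passed; HUWE1 and UBR4 have lengths of 18875 and 16011 bases and UBE2C one of 1224. Leaving out 37C replicate 2, 41C replicate 1 or 41C replicate 2 also ended all 3 calls, and leaving out 41C replicate 3 ended those of HUWE1 and UBR4. In that order these fits called 17, 36, 5 and 41 of all genes.

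Proteasome genes without a PSM symbol and the transcription factors of proteasome genes did not pass. None of 14 such proteasome genes and none of 15 factors and their processing enzymes was called by edgeR, where 1.09% of all genes were. At an unadjusted edgeR p under 0.05 the proteasome genes had 1 higher and 1 lower and the factors 1 higher. In all genes 13.7% passed that threshold in either direction. DESeq2 and limma-voom called 0 in both lists. The lid subunit SEM1 had 84.9, 83.4 and 87.9 CPM at 41C and 91.8, 96.6 and 93.3 CPM at 37C. Its groups lay apart downward, as in 8.84% of all genes (log2 change -0.14 ± 0.052, edgeR adjusted p = 0.253). With the length correction the change of SEM1 was -0.093. The ubiquitin receptor ADRM1 and the core maturation factor POMP differed by -0.025 ± 0.060 and -0.047 ± 0.054 on the log2 scale, at edgeR adjusted p-values of 0.900 and 0.767. NFE2L1 had 345.7, 371.9 and 386.3 CPM at 41C and 332.6, 346.6 and 343.5 CPM at 37C. Its groups overlapped through 41C replicate 1, and its log2 change of 0.11 ± 0.047 did not pass (edgeR adjusted p = 0.302). The related factors NFE2L2 and NFE2L3 differed by 0.064 ± 0.060 and 0.044 ± 0.079 on the log2 scale, at edgeR adjusted p-values of 0.707 and 0.864.

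Single libraries moved the values of the core. Without 37C replicate 3 its median was -0.066 and edgeR called 3 core genes lower, PSMA2, PSMA3 and PSMB10, in a fit that called 805 of all genes. Without 37C replicate 1 the median was -0.12 and PSMB10 was called lower, in a fit that called 223. Many members share exonic ground with a gene on the opposite strand. They are PSMA2, PSMC1, PSMC5, PSMD1, PSMD6, PSMD7, PSMD9, PSMD11, PSMD13, PSMD14, PSME1, PSME2, PSME3, PSME4, PSMG2, PSMG3 and PSMG4. The sources used here do not state whether counting used strand. Named pseudogenes that may share reads are annotated for PSMA2, PSMA3, PSMA6, PSMB3, PSMB7, PSMC1, PSMD4, PSMD7, PSMD8, PSMD10, PSMD12 and PSME2, with 13 for PSMC1. PSMA1, PSMA2, PSMA6, PSMB10, PSMD9, PSME2 and PSMF1 overlap an exon of another gene on their own strand, which no strand setting separates. The values of these genes are less certain.

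Across the 12056 genes tested edgeR called 99 higher and 32 lower, and leaving out 1 library gave 5 to 805 calls. Count totals ran from 20139202 to 20856144 at 41C and from 19659112 to 19745664 at 37C. All 8 keratinocyte markers were expressed, with a summed level of 7299 to 7565 CPM at 41C and 6254 to 6883 CPM at 37C. Of the fibroblast, melanocyte, leukocyte and endothelial lists, 17 of 22 markers had a row, and each list summed to at most 22.7 CPM at 41C and 30.3 CPM at 37C, with COL3A1 and CDH5 the only genes over 10 CPM. COL1A2, KDR, MLANA, TYR and SOX10 were not analysed here.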

How the data were processed

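Gene expression was measured in 3 HaCaT libraries at 41C and 3 at 37C. Per the labels' protocols, a mirVana kit gave the RNA and TruSeq Stranded mRNA the libraries. The submitters' processing notes name Trimmomatic 0.36, HISAT2 and GRCh38.p13. For the counter, annotation and strand setting: not given in the sources used here. The authors deposited whole-number read counts per symbol and an FPKM table, which equals the deposited counts per kilobase and per 1000000 counts of the library; its gene lengths were used.

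The test was edgeR 4.0.16 under R 4.3.3 (filterByExpr, TMM, robust quasi-likelihood fit, two-sided, Benjamini-Hochberg over 12056 genes, threshold 0.05). A test of 1 gene by exact permutation of 3 against 3 cannot go below p = 0.1; edgeR borrows variance information from all genes. Alternatives were DESeq2 1.42.0, limma 3.58.1 (voom, and log2(FPKM + 1) or log2(FPKM + 0.1)), other scalings and filters, blocking on replicate number, leaving out each library, and a correction for gene length (spline with 4 degrees of freedom); a GC correction was added after the data were examined, with GC content from GENCODE transcripts for 97.3% of symbols. The procedure was tested on simulated data. Promoter windows were the 250 bases before the RefSeq start; the 50 bases after it, first planned, were not used. The members and lists were chosen with earlier results of these data known. Values in full were given for members past the threshold, the 2 highest and 2 lowest changes of each group, the proteolytic subunits and fixed factors; PSMC2, PSMC5, PSMD5, PSMD7 and members with an unadjusted p under 0.05 were added after their values were seen.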

Additional observations from a re-analysis of the deposited data

How the results depend on the processing

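The 20S core kept a negative median under every alternative run, between -0.12 and -0.042. With the length correction its alpha ring had a median of -0.076 with 7 of 7 genes negative. Its beta ring then had a median of 0.0096 with 3 of 7 negative, or -0.0059 with 4 of 8 when PSMB10 was included. The 19S cap lay between -0.035 and 0.013 and so on either side of 0. For the cap the median was -0.0354 with upper-quartile scaling, which moved the median of all genes to -0.0176, -0.0326 with log2(FPKM + 1), -0.0332 with log2(FPKM + 0.1), and 0.0133 with the gene length correction, with or without the block. The length correction, without and with the block, put the median of all members at -0.0090 and -0.0087 and that of the core at -0.0418 in both. It changed the sign of 12 of the 44 members in both, 4 in the core, 6 in the cap and 2 among activators and assembly factors. The changes that turned positive included PSMB6 (0.0182 and 0.0174), PSMB7 (0.0228 and 0.0225) and, outside the members, POMP (0.0122 and 0.0110). ADRM1 turned to 0.0003 with both together. The median of activators and assembly factors was 0.0077 with the length correction.

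Same-numbered libraries did not deviate together (correlations of 0.082, -0.019 and 0.077), so the numbers were not taken as pairs. With a replicate block 438 of all genes were called, against 131 without it, with 3 members lower, all in the core (PSMA2, PSMA6 and PSMB10), and 3 other pathway genes higher and 2 lower. With the block and the length correction 2 other pathway genes were higher and 0 lower, in a fit that called 250 of all genes. Without a filter 1 member was lower, PSMB10 of the core, in a fit that called 284 of 15379 genes. Both FPKM fits and the length correction gave 0 other pathway genes higher and 0 lower. Of all 12056 genes, log2(FPKM + 1) called 11, log2(FPKM + 0.1) called 40 and the length correction 108, so few calls were available to any list. The median of the other pathway genes was -0.0013 with upper-quartile scaling, -0.0004 with log2(FPKM + 1) and -0.0002 with log2(FPKM + 0.1).

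Leaving out 1 library gave 0 to 3 members lower, all in the core, and medians of -0.0628 to -0.0331 for all members, -0.1162 to -0.0663 for the core, -0.0347 to 0.0046 for the cap and -0.0429 to 0.0336 for activators and assembly factors. Other pathway genes ran from 0 to 4 higher, 0 to 1 lower and 0.0042 to 0.0155 in median. The same fits called 5 to 805 of the 12148 to 12169 genes tested, 4 to 483 of them higher, so the counts of members and pathway genes depend on the fit. PSMB2 ran from -0.0586 to 0.0172, ADRM1 from -0.0827 to 0.0503 and NFE2L3 from -0.0009 to 0.1177. The cause of these changes was not tested.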
